A study of Rattus norvegicus with 10 samples.

Results

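The Kv4 A-type potassium channel complex was followed in the hippocampus of rats 3 months after traumatic brain injury (TBI) or sham surgery. The complex was taken as 9 genes of 16610 named genes in the count table: the pore subunits Kcnd1, Kcnd2 and Kcnd3, the channel-interacting proteins Kcnip1, Kcnip2, Kcnip3 and Kcnip4, and the dipeptidyl peptidase-like subunits Dpp6 and Dpp10. Rows of the table are RefSeq RNA records, and the 9 genes held 16 of the 32041 records, all 16 of which had enough counts to be tested. The main record of a gene was chosen by its mean count over all 10 rats, which takes no account of group. The family was put together with earlier results of these data known, and Kcnd3 and Dpp10 stand in the study's own list of altered transcripts. Their changes are therefore given without a p of their own, although both enter the counts of members past a threshold. The study's methods name 3 control and 5 TBI rats for the expression data of this model, whereas 5 sham rats were used here. The study's list may thus rest on fewer sham rats, and which 3 is not stated.

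All rats were adult male Sprague-Dawley animals. The 5 TBI rats received lateral fluid percussion, in which a pressure pulse is delivered to the intact dura through an opening over the left parietal cortex, and the 5 sham rats received the same anaesthesia and surgery without the pulse. Tissue of the left hippocampus, labelled dorsal hippocampus, that held CA3 and dentate gyrus was taken from each rat and poly-A selected RNA was sequenced, so that all cell types of the piece are mixed. The comparison of TBI with sham rats asks which transcripts differ long after the injury in this model of acquired epilepsy. The paper reports that the TBI rats had no EEG recording and no seizures on handling. It cites earlier work in which only a small part of such rats had epilepsy by this time. Whether these 5 TBI rats had epilepsy is therefore not known.

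A-type currents are transient potassium currents that switch on below the threshold of the action potential and inactivate quickly. In hippocampal neurons they delay the first spike and dampen the spread of action potentials back into dendrites, and loss of this current is a known feature of several models of temporal lobe epilepsy. The pore is a tetramer of Kv4 proteins, encoded by the Kcnd genes. Kv4 channel-interacting proteins are calcium-binding proteins that bind the cytoplasmic side and promote delivery to the membrane, while the single-pass proteins encoded by Dpp6 and Dpp10 speed up gating. In the hippocampus Kv4.2, the product of Kcnd2, is typical of granule and pyramidal cell dendrites, whereas Kv4.3, from Kcnd3, and Kcnip1 are well known in interneurons.

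Between 23425817 and 31671838 counts per library fell on RNA records. Ribosomal RNA took 59.0% of these in sham replicate 4 and 58.5% in sham replicate 5, but 12.5% to 26.2% in the other 8 rats. Values are given as CPM, a library's counts set to a common total, scaled by TMM, which sets libraries level on the bulk of their transcripts, and log2 changes are TBI over sham. Changes of members whose call or size turned on the ribosome-rich libraries, and counts over marker lists, are also given without them. All 5 CA3 genes and the 4 dentate granule genes in the table were detected in every library. So were the CA1, thalamus and choroid plexus genes in the table, so detection does not show which fields the piece held. Sham replicate 1 stood apart in its marker transcripts, with 82.9 CPM summed over the granule genes against 268 to 300 in the other sham rats.

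Over the complex, all 9 main records were lower in TBI under TMM scaling, with log2 changes from -0.65 for Dpp10 to -0.04 for Kcnd2 and a median of -0.16. Scaling by total counts put 8 of the 9 above 0, but it moved the median of all records to 0.50, and all 9 stayed below that median. As it shifts all records nearly alike, their place below the median could hardly change. Over all 22431 records tested 52.2% were lower and the median was -0.01. In edgeR's quasi-likelihood test 0 of the 9 passed an adjusted p of 0.05, as for 0% of all records. At an unadjusted p under 0.05, 3 of the 9 were lower in TBI (Kcnd1, Kcnd3 and Dpp10) and 0 were higher, where 7.89% of all records passed in either direction, 3.00% lower and 4.89% higher. Groups did not overlap for 1 of the 9, Kcnd3, which was lower, against 0.923% of all records in either direction and 0.424% lower. Without sham replicates 4 and 5 the number at an unadjusted p under 0.05 was also 3, with Kcnip3 in place of Kcnd1, and without sham replicate 1 it was 2. Since Kcnd3 and Dpp10 were known beforehand, nothing is read from these counts. In bulk tissue, fewer cells of a type and less RNA per cell cannot be told apart.

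**Figure D1:**
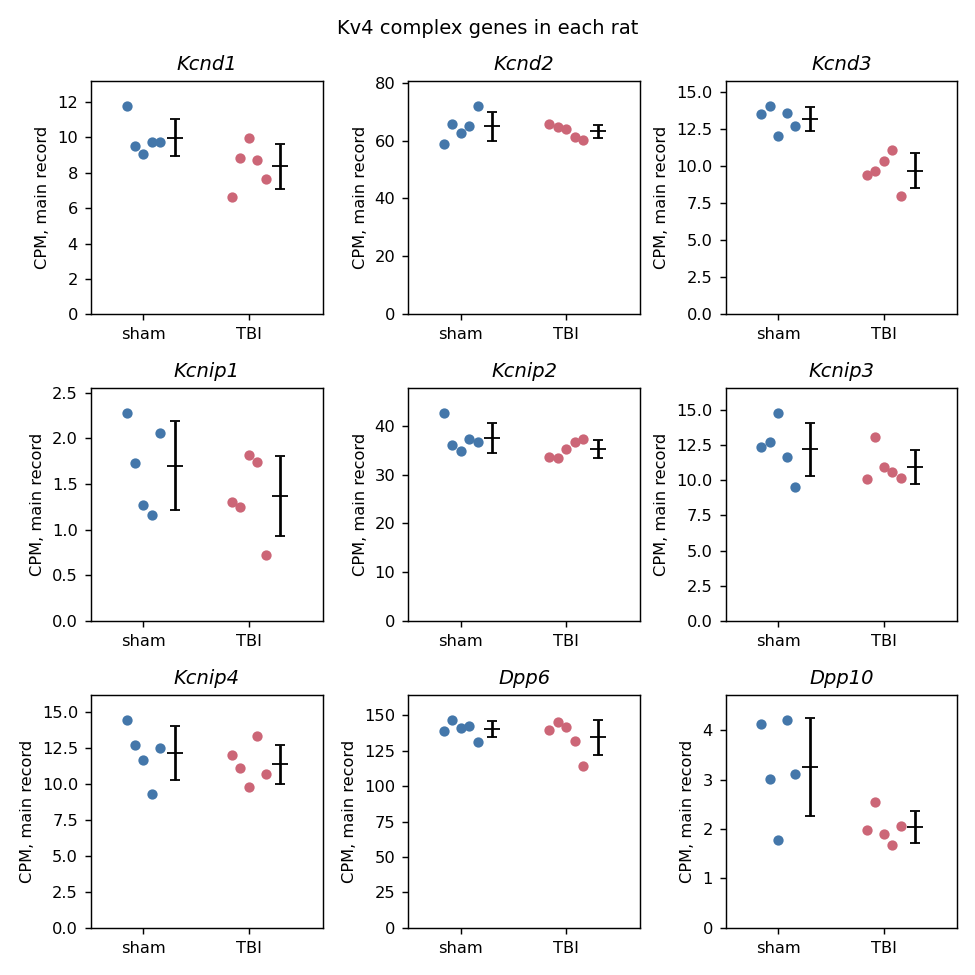
CPM, scaled by TMM, of the main record of each Kv4 complex gene (vertical axes, from 0) in the 5 sham and 5 TBI rats; each point is a rat in replicate order from the left, and the bar is the mean ± SD. Kcnd3 separates the groups (12.0 to 14.1 CPM against 7.95 to 11.1 CPM), while the groups overlap for Kcnd2 and Dpp6.

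The upstream sequences of Kcnd3 and Dpp10 are shown because these genes had the largest log2 changes among the main records under TMM. The windows printed are of unlike composition, but the other Dpp10 start is richer in G+C than the one printed. Each is the 250 bases before the annotated start in RefSeq on the rat assembly GRCr8, read 5′ to 3′ on the gene's strand, with GC boxes (GGGCGG on either strand) in capitals. The Kcnd3 window is chr2:195626066-195626315 on the plus strand, and the Dpp10 window is chr13:38821988-38822237 on the minus strand, at the outermost of its 2 listed starts.
Kcnd3: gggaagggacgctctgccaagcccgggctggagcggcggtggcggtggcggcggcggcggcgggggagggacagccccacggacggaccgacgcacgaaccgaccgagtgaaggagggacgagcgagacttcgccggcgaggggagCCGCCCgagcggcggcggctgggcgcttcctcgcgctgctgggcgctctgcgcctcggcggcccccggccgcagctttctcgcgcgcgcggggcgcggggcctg
Dpp10: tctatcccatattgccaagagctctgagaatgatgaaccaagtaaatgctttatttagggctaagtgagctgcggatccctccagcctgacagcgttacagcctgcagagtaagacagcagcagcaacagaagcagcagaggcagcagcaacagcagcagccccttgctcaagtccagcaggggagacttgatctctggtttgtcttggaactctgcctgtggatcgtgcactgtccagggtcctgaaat

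The Kcnd3 window held 43 CpG dinucleotides and 79.6% G+C, at least as many CpG as 99.5% of the 33469 windows of this length, whose median was 5. It held 1 GC box, as did the inner Dpp10 start, and 30.5% of all windows held at least 1. The outer Dpp10 window held 3 CpG, 52.0% G+C and no GC box, and the inner one 16 CpG and 68.4% G+C. Among the 7 members with an entry, Kcnip2 and Dpp6 had 2 boxes each and Kcnd2 had none with 20 CpG. The count table does not show which Dpp10 start was in use, and neither methylation nor binding at these windows was measured in the data used here.

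Kcnd3 encodes the pore subunit Kv4.3. Its main record, NM_001270963, had 13.5, 14.1, 12.0, 13.6 and 12.7 CPM in sham replicates 1 to 5. It had 9.39, 9.66, 10.4, 11.1 and 7.95 CPM in TBI replicates 1 to 5. Every TBI rat was thus below every sham rat, and TBI replicate 5 was the lowest of all. The means were 13.2 CPM ± 0.811 (SD, n = 5) after sham surgery and 9.69 CPM ± 1.17 (SD, n = 5) after TBI. On the log2 scale the change was -0.44 with a standard error of 0.0984, or -26.5%. Leaving out sham replicates 4 and 5 gave -0.44, leaving out sham replicate 1 gave -0.44, and the fit gave -0.42 with the ribosomal RNA share as a covariate.

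The table splits Kcnd3 over 3 records, which are splice forms of the same gene and share most of their sequence. The other records had log2 changes of -0.37 with a standard error of 0.113 for NM_001270962 and -0.34 with a standard error of 0.119 for NM_031739. For both of these the groups overlapped. The main record exceeded the next by little, with mean counts of 329 and 321, so that the choice between them was close and it happened to fall on the record with the larger difference. Summed over the 3 records, Kcnd3 was 33.4 to 41.3 CPM in sham rats and 22.2 to 31.0 CPM in TBI rats, with no overlap. The log2 change of the sum was -0.38 with a standard error of 0.0933.

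**Figure D2:**
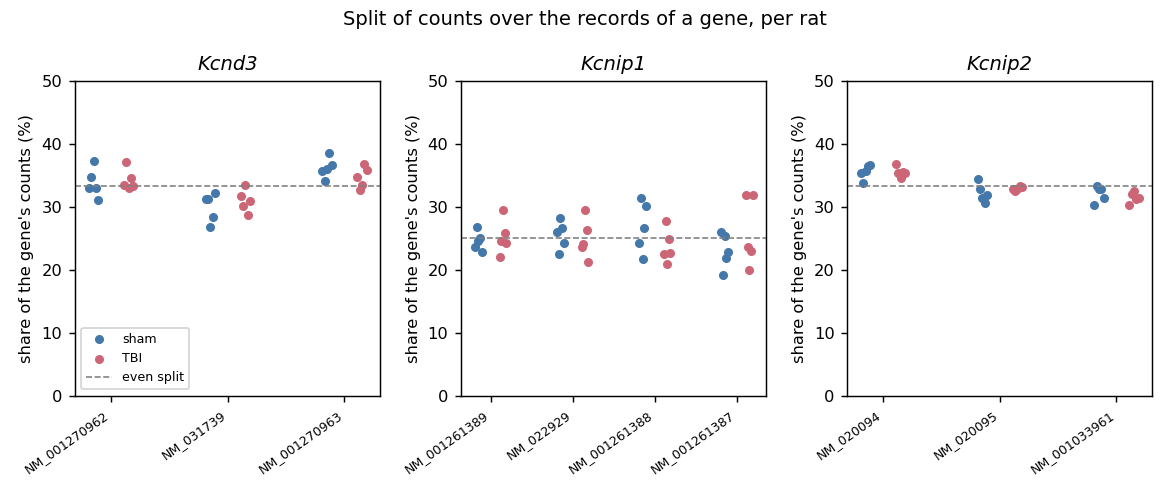
Share of a gene's counts on each of its RefSeq records (vertical axes, %), per rat, for the 3 genes with more than 1 record; the dashed line is an even split. Shares sit near the even split, 33.3% for Kcnd3 and Kcnip2 and 25.0% for Kcnip1, in both groups.

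Counts were divided almost evenly over the records of a gene. For Kcnd3 the pooled shares were 35.2%, 34.3% and 30.5%, where an even split gives 33.3%. For Kcnip1, with 4 records, they were from 24.5% to 25.3%, and for Kcnip2, with 3, from 31.7% to 35.5%. The share of the Kcnd3 main record was 36.2% ± 1.65 (SD, n = 5) after sham surgery and 34.7% ± 1.69 (SD, n = 5) after TBI, a difference smaller than the spread between rats. How reads that match several records were assigned is not given in the sources used here. The records are therefore not read as separate isoform levels, and the sum is given beside the main record where there are several.

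Kcnd2 encodes Kv4.2, the main dendritic pore subunit of principal cells. It had 58.7, 65.8, 62.6, 65.2 and 71.9 CPM in sham replicates 1 to 5 and 65.6, 64.8, 64.0, 61.2 and 60.1 CPM in TBI replicates 1 to 5. The TBI values lay inside the range of the sham values. With 959 to 2435 counts per library it had the most counts of the 3 pore genes. Its log2 change was -0.04 with a standard error of 0.0728 and a 95% interval from -0.19 to 0.12 (adjusted p = 0.933, edgeR's quasi-likelihood test). The rats with the fewest granule cell transcripts, sham replicate 1 at 82.9 CPM and TBI replicate 5 at 104.9 CPM, also had the lowest Kcnd2 of their groups; a link between these values was not tested.

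Kcnd1 encodes the pore subunit Kv4.1. It had 11.8, 9.52, 9.07, 9.72 and 9.75 CPM in sham replicates 1 to 5 and 6.64, 8.83, 9.97, 8.73 and 7.64 CPM in TBI replicates 1 to 5. All TBI rats but replicate 3 were below every sham rat. Its log2 change, -0.26 ± 0.114 (SE), did not pass the adjusted threshold (adjusted p = 0.614, edgeR's quasi-likelihood test). The highest value was that of sham replicate 1. Without that rat the log2 change was -0.19, and without sham replicates 4 and 5 it was -0.27, and in neither fit was the unadjusted p under 0.05. Leaving out TBI replicate 1 gave -0.18 and TBI replicate 5 -0.22, again without an unadjusted p under 0.05.

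Within a library, the ratio of 2 genes does not depend on how libraries are scaled. Counts of Kcnd2 over those of Kcnd3, all records summed, were 1.55, 1.60, 1.87, 1.85 and 2.08 in sham replicates 1 to 5. They were 2.43, 2.19, 2.07, 2.04 and 2.71 in TBI replicates 1 to 5. The lowest TBI values and the highest sham value overlapped narrowly, and the means were 1.79 ± 0.218 (SD, n = 5) and 2.29 ± 0.282 (SD, n = 5). Among sham replicates 1 to 3 alone the highest ratio was 1.87, below all TBI rats. As Kcnd3 was known to be lower in TBI, this ratio is a description and was not tested. Ratios are of counts not divided by transcript length, and levels are not compared between genes here.

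**Figure D3:**
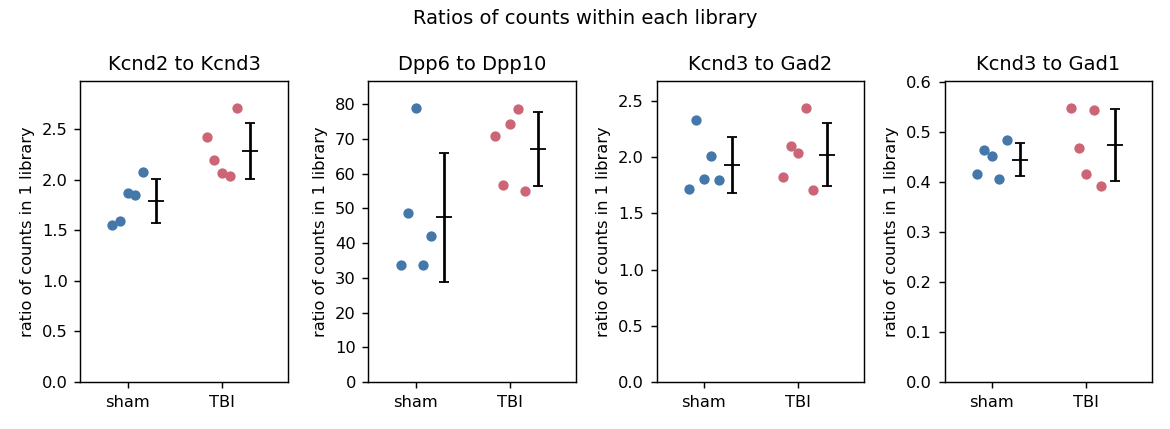
Ratios of read counts within each library (vertical axes, no unit, from 0; all records of a gene summed) for the 5 sham and 5 TBI rats; points are rats in replicate order and bars are mean ± SD. The Kcnd2 to Kcnd3 ratio is higher in TBI with a narrow overlap, whereas Kcnd3 over Gad2 or Gad1 overlaps over most of its range.

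Of the 4 channel-interacting protein genes, 0 had an unadjusted p under 0.05 on the main record in edgeR's quasi-likelihood test. Kcnip1, known from interneurons that use Kv4.3, was sparse, with 17 to 73 counts per library on its main record. That record had 2.28, 1.72, 1.27, 1.16 and 2.06 CPM in sham replicates 1 to 5 and 1.30, 1.25, 1.82, 1.74 and 0.725 CPM in TBI replicates 1 to 5. The groups overlapped widely. Its log2 change was -0.33 with a standard error of 0.242 and a 95% interval from -0.84 to 0.17 (adjusted p = 0.778, edgeR's quasi-likelihood test). Over its 4 records log2 changes were from -0.53 to -0.21, and that of their sum was -0.34 with a standard error of 0.222. Without TBI replicate 5 the log2 change was -0.17, and without sham replicate 1 it was -0.19. A change as large as that of Kcnd3 and no change both lie inside the interval of the main record.

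Kcnip2, which binds Kv4.2 and Kv4.3 in principal cells and heart, had 42.7, 36.1, 34.9, 37.4 and 36.7 CPM in sham replicates 1 to 5. In TBI replicates 1 to 5 it had 33.6, 33.4, 35.3, 36.7 and 37.3 CPM. Apart from a high value in sham replicate 1, the groups covered about the same range. For Kcnip2 the log2 change was -0.09 with a standard error of 0.0755 and a 95% interval from -0.25 to 0.07 (adjusted p = 0.814, edgeR's quasi-likelihood test). Its other records were at -0.07 and -0.11, and the sum over its 3 records was at -0.09 with a standard error of 0.0775.

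Kcnip3, also known as DREAM or calsenilin, can act as a calcium-dependent transcriptional repressor besides binding Kv4. It was 9.50 to 14.8 CPM in sham rats, with a median of 12.3, and 10.1 to 13.0 CPM in TBI rats, with a median of 10.6. Groups overlapped, and the log2 change was -0.16 with a standard error of 0.112 (adjusted p = 0.765, edgeR's quasi-likelihood test). Without sham replicates 4 and 5 it was -0.27, and with the ribosomal RNA share as a covariate -0.33, and in both of these fits, unlike with all rats and no covariate, the unadjusted p was under 0.05. Leaving out sham replicate 3, the rat with the highest Kcnip3, gave -0.08, and the fits that left out other single rats gave from -0.24 to -0.13. Sham replicate 5 had the lowest Kcnip3 of all rats. Leaving out that rat alone gave -0.24, the only 1 of the 10 fits without a single rat in which Kcnip3 had an unadjusted p under 0.05.

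Kcnip4, whose splice forms can slow Kv4 inactivation, was 9.31 to 14.5 CPM in sham rats, with a median of 12.5, and 9.77 to 13.3 CPM in TBI rats, with a median of 11.1. Its log2 change was -0.10 with a standard error of 0.114 and a 95% interval from -0.34 to 0.14 (adjusted p = 0.872, edgeR's quasi-likelihood test). Without sham replicates 4 and 5 the log2 change of Kcnip4 was -0.18, and with the ribosomal RNA share as a covariate -0.19. In neither of these fits was the unadjusted p under 0.05. Sham replicate 1 had the highest Kcnd1, Kcnip2 and Kcnip4 of the 10 rats and the lowest Kcnd2.

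Dpp6 and Dpp10 had unlike estimates, and the difference between them was not tested. Both belong to the dipeptidyl peptidase 4 family but lack its enzyme activity. Dpp10 had 4.12, 3.02, 1.79, 4.21 and 3.12 CPM in sham replicates 1 to 5 and 1.97, 2.55, 1.91, 1.68 and 2.07 CPM in TBI replicates 1 to 5. Every sham rat but replicate 3 was above every TBI rat. The means were 3.25 CPM ± 0.987 (SD, n = 5) and 2.04 CPM ± 0.324 (SD, n = 5), from 50 to 132 counts per library. On the log2 scale Dpp10 changed by -0.65 ± 0.199 (SE). Leaving out sham replicate 3 gave -0.82, sham replicate 1 -0.53 and sham replicates 4 and 5 -0.54, and the fit gave -0.53 with the ribosomal RNA share as a covariate.

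Dpp6 had 2091 to 5447 counts per library, the most of the family. It was 131 to 147 CPM in sham rats, with a median of 141, and 114 to 145 CPM in TBI rats, with a median of 140. Of the TBI rats replicate 5 alone was below all sham rats. For Dpp6 the log2 change was -0.06 ± 0.0775 (SE), with a 95% interval from -0.22 to 0.10 (adjusted p = 0.896, edgeR's quasi-likelihood test). Counts of Dpp6 over those of Dpp10 were 33.7 to 78.8 in sham rats and 55.1 to 78.7 in TBI rats, and sham replicate 3 had the highest ratio of all.

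**Figure D4:**
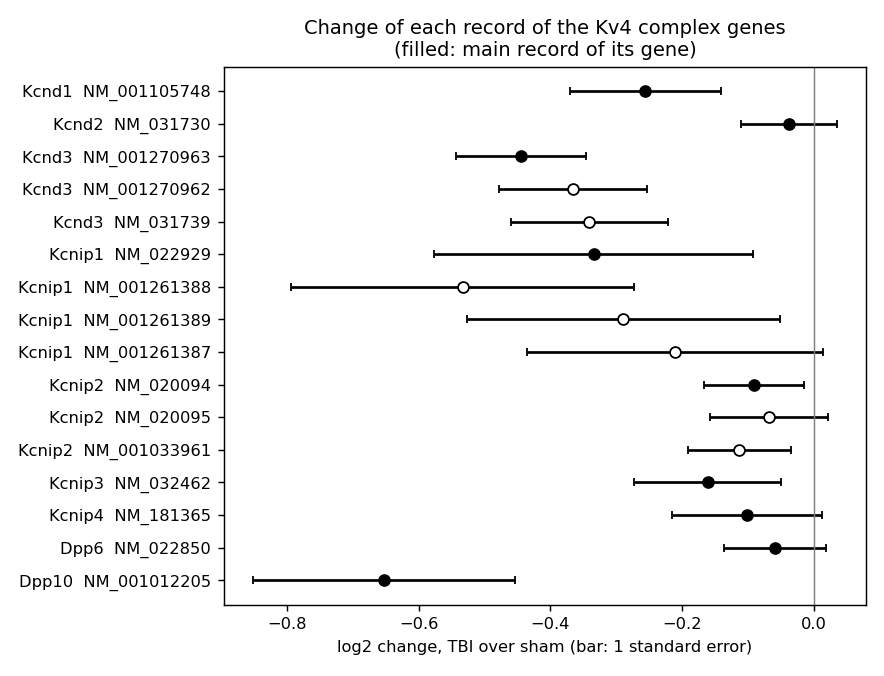
Log2 change of TBI over sham (horizontal axis) for each of the 16 RefSeq records of the 9 genes, with 1 standard error on each side; filled points are main records. The estimates run from -0.65 (Dpp10) to -0.04 (Kcnd2), with the widest errors in the sparse Kcnip1 records.

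Relative to the median of all records, all 9 members were lower under TMM, under total counts and under totals outside ribosomal RNA. The scalings differ in where they put that median. They shift all records by nearly the same amount, so a member's place relative to the median could hardly change. That place is therefore no separate support. Under scaling by total counts, which takes ribosomal RNA as part of library size, the median log2 change of all records rose from -0.01 to 0.50. Kcnd3 was then at 0.05 and Dpp10 at -0.10, and the other 7 genes were from 0.15 for Kcnip1 to 0.48 for Kcnd2. With totals outside ribosomal RNA the median of all records was 0.14. Kcnd3 was then at -0.30, Dpp10 at -0.49, Kcnd1 at -0.11 and Kcnd2 at 0.12. Dpp10 differed from the median of all records by -0.64 under TMM, -0.60 under total counts and -0.63 under totals outside ribosomal RNA. Kcnd3 differed from it by -0.44, -0.45 and -0.44. The nearest to the median was Kcnd2, which differed from it by -0.03 under TMM, -0.01 under total counts and -0.02 under totals outside ribosomal RNA.

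**Figure D5:**
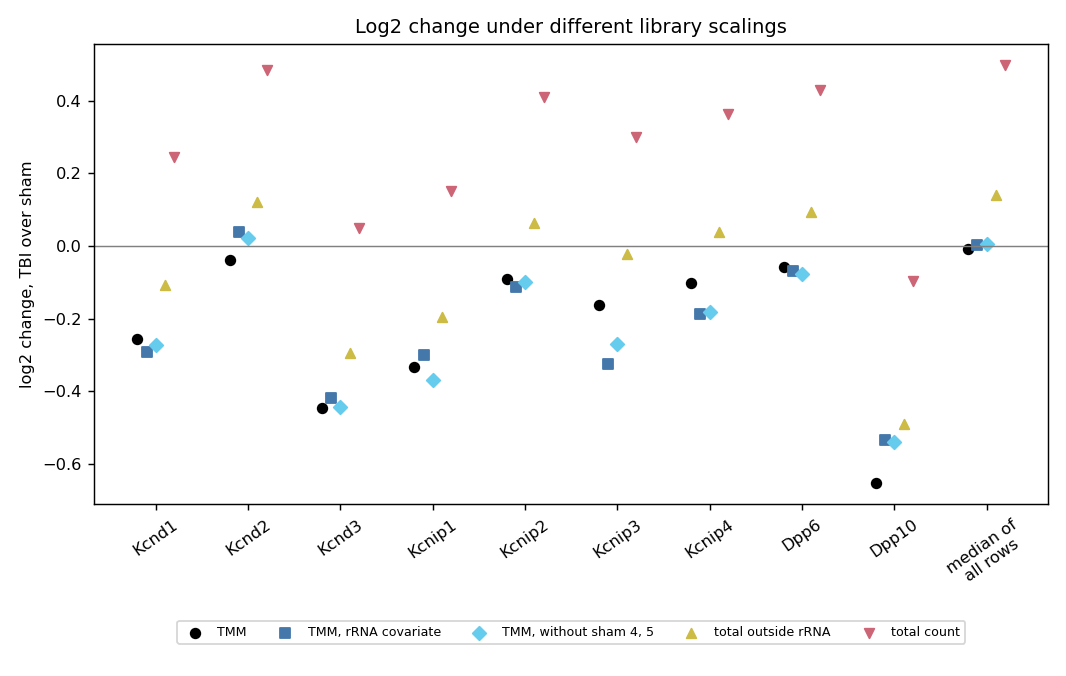
Log2 change of TBI over sham (vertical axis) of each main record and of the median of all records tested, under 5 ways of fitting (symbols). Total count scaling moves all values up together, to 0.50 for the median record and 0.05 for Kcnd3.

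Inhibitory neurons were followed through their marker genes. Of 12 interneuron genes, 12 were lower in TBI under TMM, and 5 of these had an unadjusted p under 0.05 in edgeR's quasi-likelihood test (among them Gad1, Gad2, Reln and Lhx6), while the other 7 did not reach it and 0 passed the adjusted threshold. The number at an unadjusted p under 0.05 was 4 with the ribosomal RNA share as a covariate and 4 without sham replicates 4 and 5. Leaving out sham replicate 1 gave 3, with 11 of the 12 lower. Their summed level was 442 to 583 CPM in sham rats and 346 to 479 CPM in TBI rats, and none was at 0 in any library. Gad2, which encodes a GABA-synthesizing enzyme, had a log2 change of -0.46 and Gad1 one of -0.46. The ratio of Kcnd3 to Gad2 counts was 1.72 to 2.33 in sham rats and 1.71 to 2.44 in TBI rats, and that of Kcnd3 to Gad1 counts 0.406 to 0.486 and 0.393 to 0.548. The groups overlapped over most of both ranges, and in sham replicates 1 to 3 alone the ratios were 1.72 to 2.33 and 0.417 to 0.464. Gad1, Gad2 and Reln, like Kcnd3, stand in the study's own list as lower in TBI. Nothing is therefore read from the number of interneuron genes past a threshold. The ratios to Gad1 and Gad2 are a description and were not tested. The part of the interneuron signal in the Kcnd3 and Dpp10 values was not tested.

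Marker genes of other cell types varied as well. The 4 granule cell genes were lower in TBI and 0 of them had an unadjusted p under 0.05 in edgeR's quasi-likelihood test, with sums of 82.9 to 300 CPM in sham and 105 to 311 CPM in TBI rats. The 4 CA1 genes were all higher, 2 of them (Wfs1 and Man1a1) with an unadjusted p under 0.05, with sums of 54.0 to 112 CPM in sham and 45.4 to 384 CPM in TBI rats. CA1 is not among the fields that the labels name for the piece, and its pyramidal cells carry much Kv4.2. Of the 6 astrocyte genes 2 were higher at that threshold, Gfap and Aldh1l1, and the sums were 1626 to 2476 CPM and 1790 to 3348 CPM. The 6 general neuron genes had log2 changes from -0.19 to 0.08. Wfs1 and Gfap stand in the study's own list as higher in TBI, so their direction was known beforehand. For these lists a part in the Kv4 complex values was not tested.

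Of the remaining lists, 1 of 5 CA3 genes was lower (Prss35), and 1 gene was higher in each of the thalamus (Prkcd of 3), microglia (Aif1 of 6) and choroid plexus (Folr1 of 4) lists, at an unadjusted p under 0.05. For oligodendrocytes and endothelium the number was 0 of 6 and 0 of 4. In the study's own list Prss35 stands as lower and Folr1 as higher in TBI. Several of these counts turned on few libraries. Without sham replicates 4 and 5 the astrocyte and microglia lists had 0 genes at an unadjusted p under 0.05, the CA1 list 1, and the thalamus list 0 higher and 1 lower. Without sham replicate 1 the astrocyte list had 1 and the CA1 list 1, while 1 granule cell gene was lower and 1 CA3 and 1 endothelium gene were higher. After adjustment, 0 genes of any marker list passed 0.05 in any of these fits in edgeR's quasi-likelihood test.

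Of 16 genes for proteins that bind or modify Kv4 channels, 14 had enough counts to test, Kcne1 and Kcne3 being too sparse, and 0 had an unadjusted p under 0.05 in edgeR's quasi-likelihood test. Log2 changes were from -0.16 to 0.37, with 5 higher and 9 lower. With the highest mean counts, which also reflect transcript length, stood Camk2a, a kinase that phosphorylates Kv4.2, at 0.10 with a standard error of 0.0870, and the scaffold gene Dlg4 at -0.09 with a standard error of 0.0948. Flna, which encodes the actin cross-linker filamin A, was the highest, at 0.37 with a standard error of 0.189 (adjusted p = 0.684, edgeR's quasi-likelihood test).

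Of 12 genes for other voltage-gated potassium channels, 2 were lower at an unadjusted p under 0.05 and 0 were higher. They were Kcna2, which encodes the axonal low-threshold channel Kv1.2, at -0.30 with a standard error of 0.129, and Kcnc2, which encodes Kv3.2 of fast-spiking interneurons, at -0.33 with a standard error of 0.133. Their adjusted p-values were 0.589 and 0.569 in edgeR's quasi-likelihood test. Kcna4, the Kv1 gene with A-type kinetics, was at -0.14 with a standard error of 0.139, and Kcnc4, a Kv3 gene with A-type kinetics, was at -0.27 with a standard error of 0.288. The accessory subunit gene Kcnab2 was at 0.07 and the delayed rectifier Kcnc1 at -0.12. The median of the 12 was -0.12, beside -0.16 for the Kv4 complex and -0.01 for all records.

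Of the enzymes related to Dpp6 and Dpp10, Dpp9 alone had enough counts to test. Its log2 change was 0.04 with a standard error of 0.0820 (adjusted p = 0.941, edgeR's quasi-likelihood test). Dpp4 and Fap averaged 1.90 and 2.10 counts per library.

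Covariation between rats was described after centring each group on its own mean, over the 10 rats and without a test, since these values share library depth and tissue composition. Among the 36 pairs of main records Pearson's r was from -0.67 for Kcnd2 with Kcnip2 to 0.73 for Kcnd3 with Kcnip1. Over the 8681 named records with at least 5 CPM, the genes most like Kcnd3 were Trim32 (r = 0.90, Spearman's rho = 0.82), Ppp2r2c (r = 0.89, rho = 0.78) and Fig4 (r = 0.88, rho = 0.76). Those most like Kcnd2 were Dipk2a (r = 0.98, rho = 1.00), Dbr1 (r = 0.96, rho = 0.78) and Slf2 (r = 0.96, rho = 0.95). Those most like Dpp10 were Pacc1 (r = 0.94, rho = 0.96), Stk24 (r = 0.92, rho = 0.68) and Minpp1 (r = 0.91, rho = 0.89). These are the highest of 8681 values each, and such values over 10 rats are large by selection.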

How the data were processed

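Messenger RNA of 5 sham and 5 TBI rats was read as single reads of 36 bases. Per the labels, reads were aligned with BWA to rat genome rn4, and the authors deposited counts for each RefSeq RNA record, neither normalized nor pooled. The methods of the study name Ensembl transcripts, while the rows are RefSeq records; this was not settled here. Strand was not stated to be used in counting. An empty row and the unmapped reads (a median of 22.2% of reads) were left out.

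Records were named from RefSeq (GRCr8, names only), which matched 54.2% of 32041. Records with a total of at least 44 counts, the 30th percentile, were kept (22431). Groups were compared with edgeR 4.0.16 (quasi-likelihood F test, robust, TMM) in R 4.3.3, with Benjamini-Hochberg adjustment over all records kept. Intervals of log2 changes use the t quantile of that fit. The test was tested on simulated data. Alternatives were edgeR's exact test, DESeq2 1.42.0, limma 3.58.1 with voom, other scalings, no filter, a ribosomal RNA covariate, summed records and leaving out rats; marker lists were refitted without doubted libraries, an alternative chosen after seeing the data. Replicate numbers follow accession order and pair no rats. Likeness used log2 CPM with a prior count of 2. Named genes were all member records, context genes with an unadjusted p under 0.05 or the 3 highest mean counts of their list, and the 3 most alike records; Kcna4, Kcnc4, Kcnab3, Flna, Prkaca and Dpp4 were named after their values were seen. The members, lists and tests were chosen with earlier results of these data known. Some genes of the context and marker lists are counted but not reported here by name. Figures were drawn with matplotlib 3.10.9.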

Additional observations from a re-analysis of the deposited data

Results flagged for a closer look

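In 60 groups of 5 rats, a single rat was set far from the other 4 in 9 cases by Dixon's test, which chance gives in about 5% of groups. Of the 9, 6 were sham replicate 1: Kcnd1 at 11.8 CPM (others 9.07 to 9.75), the summed Kv4 partner genes at 2993 CPM (2707 to 2771), other voltage-gated potassium channel genes at 1058 CPM (883 to 930), dentate granule genes at 82.9 CPM (268 to 300), CA3 genes at 728 CPM (533 to 585) and general neuron genes at 2396 CPM (1937 to 2067). TBI replicate 5 had a Kcnip2 to Kcnip1 ratio of 30.9 (others 15.6 to 18.2). The summed astrocyte genes were 2476 CPM in sham replicate 3 (others 1626 to 1748), and the choroid plexus genes were 34.8 CPM in sham replicate 4 (others 6.27 to 13.6). These lists were read in the same libraries, so the flags are not independent of each other.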

How the results depend on the processing

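Of the log2 changes of main records under alternatives, 165 kept their direction and their side of the adjusted threshold, 14 turned and 1, Kcnd3 in edgeR's exact test, came to pass it. The turned ones were 8 under total count scaling (Kcnd1 0.24, Kcnd2 0.48, Kcnd3 0.0498, Kcnip1 0.15, Kcnip2 0.41, Kcnip3 0.30, Kcnip4 0.36, Dpp6 0.43), 4 with totals outside ribosomal RNA (Kcnd2 0.12, Kcnip2 0.0623, Kcnip4 0.0392, Dpp6 0.0934), and Kcnd2 without sham replicates 4 and 5 (0.0223) and with the covariate of ribosomal RNA share (0.0384). The scalings moved the median of all records to 0.50 and 0.14, and all 9 members were below it under both. A nearly equal shift of all records leaves this place little room to change. Kcnd2 was above the median of all records without sham replicates 4 and 5 and with the covariate. It was also above that median, by 0.0059, without sham replicate 5 alone. Dpp6 was above it by 0.0025 without TBI replicate 5. The cause was not tested.

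Members past the adjusted threshold numbered 0 in the main test, 1 (Kcnd3) in edgeR's exact test and 0 under each other alternative run. The share of all records that passed in the exact test is not reported here. As Kcnd3 was known beforehand, nothing is read from its call. Members with an unadjusted p under 0.05 were 3 in the main test, 0 under total count scaling and 2 to 4 when each rat was omitted in turn (10 fits). They were 2 without sham replicate 1, TBI replicate 1 or TBI replicate 5, and 4, with Kcnip3 added, without sham replicate 5. Kcnip3 took the place of Kcnd1 among the 3 both without sham replicates 4 and 5 and with the ribosomal RNA share as a covariate. Across those 10 fits the log2 change was from -0.50 to -0.38 for Kcnd3 and from -0.82 to -0.53 for Dpp10, while Kcnd1 kept an unadjusted p under 0.05 in 7 of them. For Kv4 partner genes the count was 0 in the main test and 1 in edgeR's exact test, with DESeq2 and under total count scaling (Flna), 1 with the covariate and without sham replicates 4 and 5, and 0 to 2 leaving out a rat, with 2 without sham replicate 3 (Flna and Prkaca). For other potassium channel genes it was 2, but 0 under both total scalings and with the covariate, 1 without sham replicates 4 and 5 (Kcna2), and 1 to 2 leaving out a rat, with 1 without sham replicate 4 or TBI replicate 1, 2, 3 or 5. Without sham replicate 1 the 2 were Kcna4 and Kcnab2, and without sham replicate 2 Kcnc2 and Kcnab3. For the dipeptidyl peptidase 4 family it was 0, and 1 without a filter (Dpp4, at 1.90 counts per library). Main records of Kcnip1 and Dpp10 had 17 to 73 and 50 to 132 counts per library. Over its 4 records Kcnip1 had 64 to 280, and the standard error was 0.222 for the sum and 0.242 for the main record, so depth was not shown to set its width. Fits that left out a rat gave -0.46 to -0.17 for Kcnip1 and -0.24 to -0.08 for Kcnip3.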
